A study of Mus musculus with 12 samples.

Results

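The OAS genes encode the 2′-5′-oligoadenylate synthetases and their close relatives, and 8 of them were followed through all 12 libraries of a gamma-ray experiment in mouse cells: Oas1a, Oas1b, Oas1c, Oas1g, Oas2, Oas3, Oasl1 and Oasl2. They were taken by exact symbol from the 22036 annotated genes in a table of 33625 genes, and each symbol matched 1 row. The cells were MODE-K, an immortalized line from mouse small-intestinal epithelium, labelled wild type. Groups of 3 libraries each were taken 48 h after 12 Gy (12Gy_48h), 24 h after 12 Gy (12Gy_24h), 48 h after 4 Gy (4Gy_48h), and without irradiation at 0 h (control). Radiation came from a cobalt source at 87 cGy per minute. The controls analysed here were taken at 0 h only, so radiation and time in culture cannot be told apart in any comparison with control. Likewise, 12Gy_48h and 12Gy_24h differ both in time after the dose and in time in culture. The labels do not say that replicates were separate cultures, and the p-values therefore reflect variation among libraries that may be technical only.

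An active OAS enzyme binds double-stranded RNA and joins ATP into short chains with 2′-5′ bonds, called 2-5A. These chains are messengers of the antiviral response, which slows viral growth and can stop translation in the cell itself. In most cell types, intestinal epithelium included, OAS genes are switched on by interferon through a promoter element built from GAAA repeats. Several mouse members have no synthetase activity and act in other ways.

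Library totals were 3616416 to 4831641 reads. Epithelial markers were scarce, against the label: Epcam had 2 reads, Cdh1 had 2 and Vil1 had 3 in all 12 libraries together, and the 8 markers summed to 8.15 to 10.2 CPM at 12Gy_48h, 13.8 to 19.0 at 12Gy_24h, 6.42 to 8.05 at 4Gy_48h and 2.56 to 6.66 in control. Most of this was Krt18, a keratin gene called higher at 12Gy_24h than in control (log2 fold change 2.14, SE 0.31, adjusted p = 2.8e-05). CPM here are reads relative to the library total, after TMM scaling, which adjusts library sizes for composition. The 9 mesenchymal markers, led by Vim, Col1a2 and Sparc, summed to 1584 to 2122 CPM at 12Gy_48h and 2778 to 3149 at 12Gy_24h. They summed to 1429 to 1892 CPM at 4Gy_48h and 780.0 to 1276 in control. Most other markers of that list were scarce too. In all 12 libraries together, Acta2 had 2 reads, Col3a1 8, Dcn 20, Pdgfra 71, Pdgfrb 103 and Col1a1 526. The 8 immune markers, mainly Cd68, summed to 41.9 to 49.4 CPM at 12Gy_48h, 24.9 to 41.1 at 12Gy_24h, 17.3 to 23.5 at 4Gy_48h and 24.3 to 30.0 in control, and Ptprc, Cd3e and Adgre1 had no read. The 3 lists moved with the groups, and their part in the results was not tested. In bulk RNA, a change in the number of expressing cells and a change in RNA per cell cannot be told apart.

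All 8 genes lie on mouse chromosome 5, in GENCODE's annotation of GRCm38, and the build used for the deposited counts is not given in the sources used here. Oas2 (120730333-120749853), Oas3 (120753098-120777661), Oas1c (120800194-120812514), Oas1g (120876142-120887613) and Oas1a (120896256-120907521) are on the minus strand. Oas1b (120812635-120824163) is on the plus strand inside the same cluster, and its start lies 121 bases from that of Oas1c, with transcription running in opposite directions. Oasl2 (114896936-114912234) and Oasl1 (114923240-114937915) form a pair on the plus strand about 5792 kb from the cluster.

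The sequence just before the start sites is shown for 4 members because it holds the interferon-type repeat. The motif was read from the Oas1a window, where 1 set of 4 bases, runs of a single letter aside, stands 3 times with 2 bases between, and is GAAANNGAAA, a spaced pair of those 4 bases, the form known for interferon-responsive promoters. Its matches in Oas1a are therefore given by the choice. It was searched on both strands in RefSeq promoter windows (GRCm38.p6) running from 250 bases before to 50 bases after each start. Windows matched 6 of the 8 members. Capitals mark bases covered by a match, and each stretch reads 5′ to 3′ along the named gene.
Oas1a, chr5:120907526-120907645, minus strand: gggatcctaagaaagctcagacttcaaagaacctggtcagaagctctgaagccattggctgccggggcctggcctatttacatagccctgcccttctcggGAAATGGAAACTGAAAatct
Oas1g, chr5:120887614-120887733, minus strand: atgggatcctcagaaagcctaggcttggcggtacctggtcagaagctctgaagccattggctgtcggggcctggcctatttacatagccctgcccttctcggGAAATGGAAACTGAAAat
Oas1b, chr5:120812515-120812634, plus strand: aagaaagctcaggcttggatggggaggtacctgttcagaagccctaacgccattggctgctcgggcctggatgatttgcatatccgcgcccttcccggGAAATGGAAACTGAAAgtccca
Oas3, chr5:120777660-120777779, minus strand: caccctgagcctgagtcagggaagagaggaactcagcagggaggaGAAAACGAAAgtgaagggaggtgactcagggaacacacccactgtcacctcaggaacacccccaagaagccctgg
The Oas1b stretch is the whole interval between the Oas1c and Oas1b starts, read from the Oas1c window on the opposite strand.

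Oas1a, Oas1g and Oas1b carried the same 16 bases, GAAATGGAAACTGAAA, in which a pair of motif matches overlap. The element lay 20 to 5 bases before the start of Oas1a, 18 to 3 bases before that of Oas1g and 22 to 7 bases before that of Oas1b, in the direction of transcription each time. Seen from Oas1c it lay 114 to 99 bases upstream on the other strand. Oas3 held 1 match, GAAAACGAAA, 75 to 66 bases before its start. The Oasl1 and Oasl2 windows held none, which says only that these letters are not in those windows. Of 32851 windows, 1131 (3.44%) held at least 1 match and 74 (0.225%) held 2 or more. The 16 bases occurred in 7 windows of 5 genes, which were Oas1a, Oas1g, Oas1c and a further pair, Apol9a and Apol9b.

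**Figure D1:**
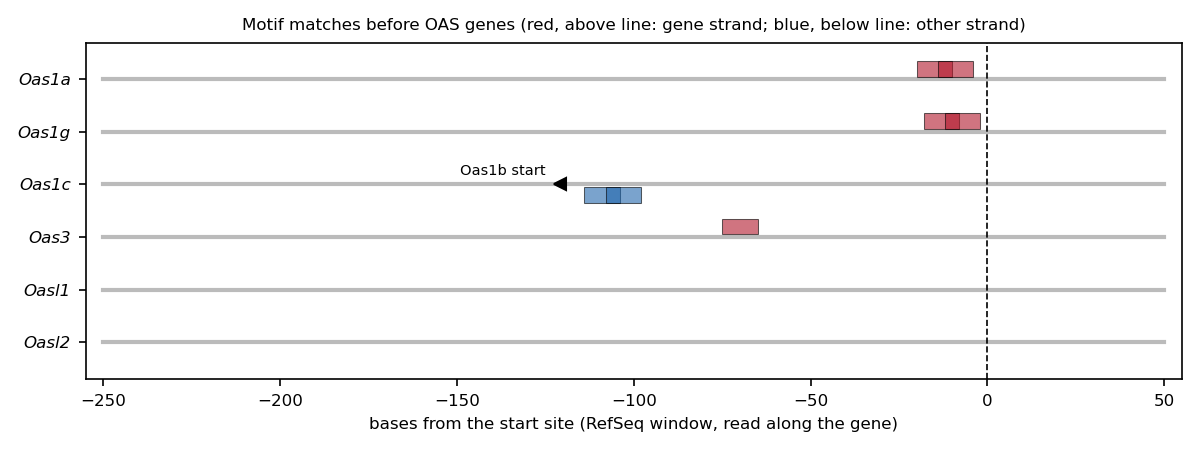
Matches to GAAANNGAAA along the RefSeq windows of 6 OAS genes. The horizontal axis gives bases from the start site; red boxes above a line are matches on the gene's own strand and blue boxes below it are matches on the other strand, and the wedge marks the annotated start of Oas1b. Oas1a and Oas1g have 2 overlapping matches within 20 bases of the start, and Oasl1 and Oasl2 have none.

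The 8 genes together gave a level that was highest 48 h after 12 Gy and lowest 24 h after 12 Gy. Their sum was 830, 838 and 884 CPM at 12Gy_48h, 218, 237 and 252 at 12Gy_24h, 751, 587 and 759 at 4Gy_48h, and 315, 474 and 305 in control. The 12Gy_48h libraries lay above all others and the 12Gy_24h libraries below all others. Control replicate 2 was the highest control for each of the 8 members. The mean level was highest at 12Gy_48h for 7 members, the exception being Oas1g, and lowest at 12Gy_24h for 7, the exception being Oas1c.

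**Figure D2:**
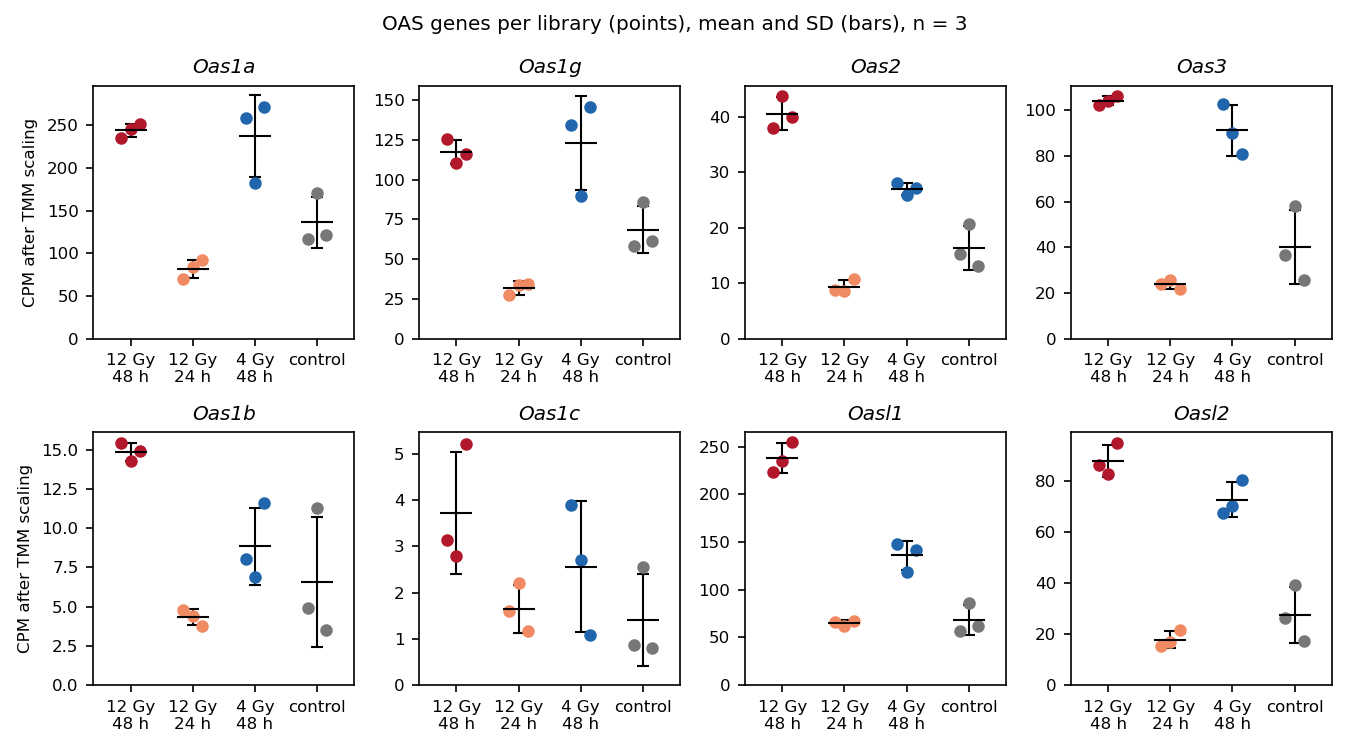
CPM after TMM scaling for each OAS gene (linear vertical axis from 0) in 12Gy_48h, 12Gy_24h, 4Gy_48h and control. Points are libraries, and the long bar with whiskers is the mean with SD (n = 3). Apart from Oas1c, every gene has its lowest mean at 12Gy_24h.

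At 48 h after 12 Gy, all 8 genes passed the test as higher than control, with log2 fold changes between 0.78 for Oas1g and 1.81 for Oasl1. The test was edgeR's quasi-likelihood test with Benjamini-Hochberg adjustment over all 15086 genes tested, called at an adjusted p under 0.05, and at 12Gy_48h it called 12.9% of all genes higher and 20.2% lower. Among known genes it called 18.2% higher and 3.74% lower there. The members' median log2 fold change was 1.34, against 0.01 over all genes tested. The other 7 members passed the filter on low counts in every library, but Oas1c reached the minimum in 3 libraries at 12Gy_48h, 0 at 12Gy_24h, 2 at 4Gy_48h and 1 in control, so that it entered the test mainly through the groups in which it was high.

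At 24 h after the same dose the direction was the other way: 5 genes passed as lower than control (Oas1a, Oas1g, Oas2, Oas3 and Oasl2), none passed as higher, and the median was -0.68 against 0.01 over all genes. That comparison called 18.5% of all genes higher and 29.4% lower, but among known genes, to which the members belong, it called 26.5% higher and 3.99% lower. The test of 12Gy_48h directly against 12Gy_24h called 7 genes higher, all but Oas1c, with a median of 1.88 against 0.12. It called 20.6% of all genes higher and 11.4% lower, and 9.97% of known genes higher and 15.6% lower.

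At 48 h after 4 Gy, 6 genes passed as higher than control, all but Oas1b and Oas1c, with a median of 0.86 against 0.01. That comparison called 4.53% of all genes higher and 13.0% lower, and 6.21% of known genes higher and 0.877% lower. Between doses at 48 h, Oas2 and Oasl1 passed as higher after 12 Gy than after 4 Gy. There, 2.19% of all genes were called higher and 2.49% lower, and 2.79% of known genes higher and 1.55% lower. The 3 comparisons with control share the same control libraries, and their calls are therefore not independent of each other.

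A feature of the table shifts these values. Newly assembled loci took 14.0 to 15.1% of reads at 12Gy_48h, 11.9 to 12.0% at 12Gy_24h, 15.1 to 16.9% at 4Gy_48h and 19.8 to 21.7% in control, and the median log2 fold change of known genes stood at 0.20, 0.23 and 0.14 in the comparisons of 12Gy_48h, 12Gy_24h and 4Gy_48h with control. With known genes alone in the fit, these medians were close to 0 and each OAS value dropped by about as much. The calls were then 7 of 8 higher at 12Gy_48h, 5 lower at 12Gy_24h and 3 higher at 4Gy_48h (Oas3, Oasl1 and Oasl2). In that fit, 6.76% of genes were called higher at 12Gy_48h, 7.91% lower at 12Gy_24h and 0.754% higher at 4Gy_48h.

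**Figure D3:**
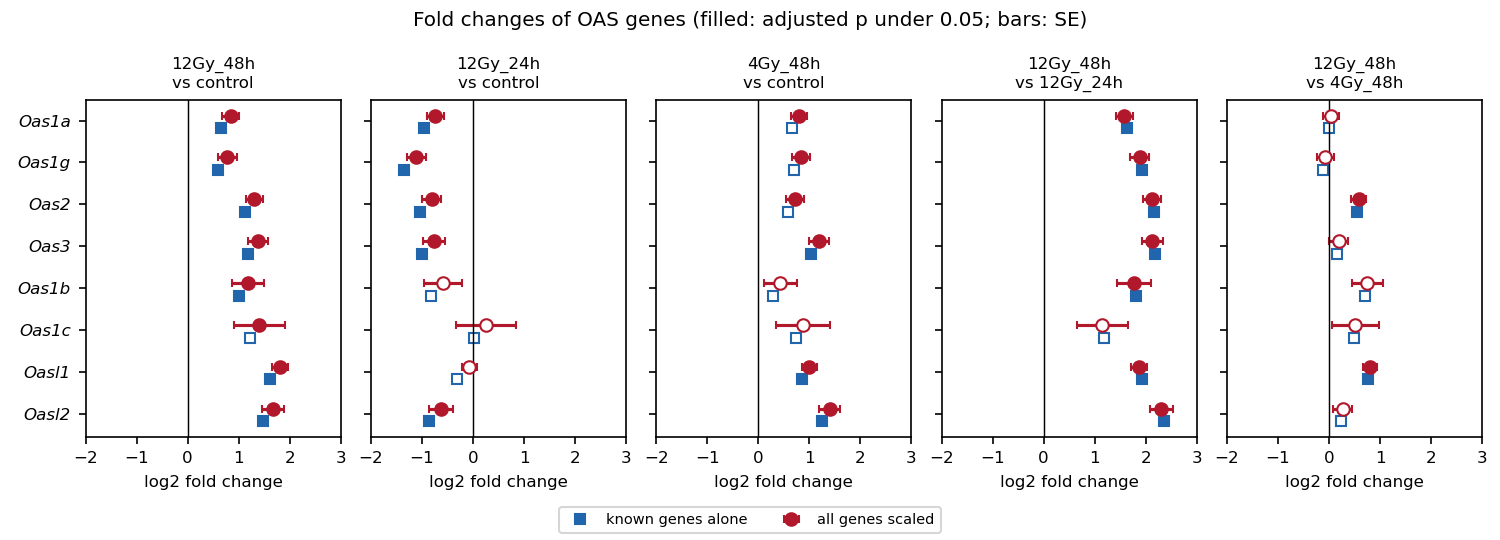
Log2 fold changes of the 8 OAS genes in 5 comparisons, the first-named group over the second. Circles with SE bars come from the fit on all genes and squares from the fit on known genes alone; filled symbols have an adjusted p under 0.05. The symbols lie right of 0 at 12Gy_48h and 4Gy_48h against control, and the 5 filled circles at 12Gy_24h lie left of it.

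Oas1a encodes an active synthetase of the smallest type and had the highest level per kb of transcript in each group. Its level was 236, 246 and 251 CPM at 12Gy_48h, 70.1, 83.8 and 91.6 at 12Gy_24h, 259, 182 and 271 at 4Gy_48h, and 116, 170 and 122 in control. Both groups taken at 48 h lay above control without overlap, and 12Gy_24h lay below it. The log2 fold change against control was 0.84 at 12Gy_48h (SE 0.16, adjusted p = 0.000933), -0.74 at 12Gy_24h (SE 0.17, adjusted p = 0.00153) and 0.80 at 4Gy_48h (SE 0.16, adjusted p = 0.0028). Without control replicate 2, the change at 12Gy_24h was -0.47 (adjusted p = 0.0232). Between doses at 48 h the difference was 0.04 (SE 0.16, adjusted p = 0.918), and the libraries overlapped.

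Oas1g, a neighbouring active synthetase gene, followed Oas1a. It had 125, 110.3 and 116 CPM at 12Gy_48h, 27.1, 33.9 and 34.4 at 12Gy_24h, 134, 89.6 and 145 at 4Gy_48h, and 58.4, 85.8 and 61.4 in control. The order of groups was that of Oas1a, apart from the means of 12Gy_48h and 4Gy_48h, whose libraries overlapped. Its change at 12Gy_24h against control, -1.11 (SE 0.19, adjusted p = 0.000143), had the greatest size among the members in that comparison. It was 0.78 at 12Gy_48h (SE 0.18, adjusted p = 0.00334) and 0.84 at 4Gy_48h (SE 0.18, adjusted p = 0.00371). The transcripts of Oas1a and Oas1g were 97.5% identical over 1860 aligned bases, with an unbroken identical run of 526 bases, so the split of reads between these genes depends on the counting and is uncertain. Their stretches upstream were alike too, at 86.1% over 303 aligned bases.

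Oas1a had 1.88, 2.23 and 2.16 reads per Oas1g read at 12Gy_48h, 2.59, 2.47 and 2.66 at 12Gy_24h, 1.93, 2.04 and 1.86 at 4Gy_48h, and 1.99 in each control. The 12Gy_24h libraries did not overlap control, with a log2 ratio of 1.36 ± 0.05 against 0.99 ± 0.00 (SD, n = 3 each). The exact permutation test gave p = 0.1, two-sided, which is the smallest that 3 against 3 allows, and 0.2 after adjustment over the 20 ratio comparisons made. A ratio within a library does not depend on the scaling, but does depend on how shared reads were assigned.

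Oas2, whose enzyme joins a pair of synthetase units in a single chain, had 37.9, 43.8 and 40.0 CPM at 12Gy_48h, 8.76, 8.54 and 10.8 at 12Gy_24h, 28.0, 25.9 and 27.2 at 4Gy_48h, and 15.3, 20.7 and 13.1 in control. None of the 4 groups overlapped another. The log2 fold change against control was 1.31 at 12Gy_48h (SE 0.16, adjusted p = 2.28e-05), -0.81 at 12Gy_24h (SE 0.19, adjusted p = 0.00204) and 0.72 at 4Gy_48h (SE 0.17, adjusted p = 0.00657). Without control replicate 2, the change at 12Gy_24h was -0.53 (adjusted p = 0.0265). Oas2 was also higher after 12 Gy than after 4 Gy at 48 h, by 0.58 (SE 0.15, adjusted p = 0.0407). That call was lost whichever of the 6 libraries was left out, with adjusted p between 0.0804 and 0.176.

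Oas3 encodes the longest OAS protein, which in human cells is the main source of 2-5A. It had 102, 104 and 106 CPM at 12Gy_48h, 23.9, 25.6 and 21.6 at 12Gy_24h, 103, 90.1 and 80.7 at 4Gy_48h, and 36.5, 57.9 and 25.7 in control. The 48 h groups overlapped each other and lay above every control, while 12Gy_24h lay just below the lowest control. The log2 fold change was 1.38 at 12Gy_48h (SE 0.20, adjusted p = 9.8e-05), 1.19 at 4Gy_48h (SE 0.20, adjusted p = 0.000815) and -0.76 at 12Gy_24h (SE 0.22, adjusted p = 0.00857). Without control replicate 2, the change at 12Gy_24h was -0.32 (adjusted p = 0.14), and without replicate 3 of 12Gy_24h its adjusted p was 0.0711.

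Oas1b is known in mice as the flavivirus resistance locus, and its protein lacks synthetase activity. GENCODE lists it as a polymorphic pseudogene, with a coding length of 753 bases against 1101 for Oas1a. Reads were few, at 59, 56 and 57 in the 12Gy_48h libraries, 18, 16 and 13 at 12Gy_24h, 31, 28 and 43 at 4Gy_48h, and 23, 44 and 13 in control. The 12Gy_48h libraries lay above all others after scaling (15.4, 14.3 and 14.9 CPM, against 4.94, 11.3 and 3.48 CPM in control), while the other groups overlapped control. The change was 1.18 at 12Gy_48h against control (SE 0.31, adjusted p = 0.00749) and 1.77 against 12Gy_24h (SE 0.33, adjusted p = 0.000879). It did not pass at 12Gy_24h (-0.59, SE 0.37, adjusted p = 0.201) or 4Gy_48h (0.43, adjusted p = 0.398) against control. Without control replicate 2, it did pass at 4Gy_48h (1.08, adjusted p = 0.0194), and the change at 12Gy_48h was 1.83 (adjusted p = 0.000183).

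Oas1c, whose product also lacks synthetase activity in mice, had 12, 11 and 20 reads at 12Gy_48h, 6, 8 and 4 at 12Gy_24h, 15, 11 and 4 at 4Gy_48h, and 4, 10 and 3 in control. Every 12Gy_48h library was above every control after scaling, with 2.80 CPM in the lowest 12Gy_48h library against 2.56 CPM in the highest control. The log2 fold change of 1.40 (SE 0.50, adjusted p = 0.042) did not hold with known genes alone (1.22, adjusted p = 0.109), nor without replicate 1 or 3 of 12Gy_48h or of control (adjusted p between 0.0582 and 0.17). Without control replicate 2 it was 2.15 (adjusted p = 0.013). At 12Gy_24h and 4Gy_48h the changes were 0.25 (SE 0.59, adjusted p = 0.753) and 0.88 (SE 0.53, adjusted p = 0.284). The other mouse OAS1 copies were nearly silent, with 2 reads for Oas1d, 2 for Oas1e, 11 for Oas1f and 1 for Oas1h in all 12 libraries.

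Oasl1, an OAS-like gene without synthetase activity whose mouse protein blocks translation of Irf7, showed the greatest rise at 12Gy_48h. It had 224, 235 and 255 CPM at 12Gy_48h, 66.4, 61.4 and 66.8 at 12Gy_24h, 147, 119 and 142 at 4Gy_48h, and 56.3, 86.3 and 61.6 in control. The 12Gy_48h group lay highest and 4Gy_48h next, both clear of control, while 12Gy_24h lay within the range of the controls. The log2 fold change against control was 1.81 at 12Gy_48h (SE 0.15, adjusted p = 1.03e-06), a fold of 3.50, and 1.00 at 4Gy_48h (SE 0.15, adjusted p = 0.000274). At 12Gy_24h it was -0.07 (SE 0.15, adjusted p = 0.738). The difference between doses at 48 h was 0.81 (SE 0.14, adjusted p = 0.00628).

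Oasl2, an OAS-like gene whose mouse protein keeps synthetase activity and carries ubiquitin-like repeats, had 86.3, 82.8 and 95.1 CPM at 12Gy_48h, 15.1, 16.8 and 21.6 at 12Gy_24h, 67.5, 70.3 and 80.7 at 4Gy_48h, and 26.2, 39.2 and 17.4 in control. Both 48 h groups lay above control and above 12Gy_24h, and the 12Gy_24h libraries overlapped control. The log2 fold change was 1.67 at 12Gy_48h (SE 0.21, adjusted p = 2.28e-05, a fold of 3.19) and 1.40 at 4Gy_48h (SE 0.21, adjusted p = 0.000293). At 12Gy_24h it was -0.63 (SE 0.23, adjusted p = 0.0301), but -0.23 without control replicate 2 (adjusted p = 0.369). Its adjusted p was 0.126 without replicate 1 of 12Gy_24h and 0.151 without replicate 2. With DESeq2, Oasl2 changed by -0.54 at 12Gy_24h (adjusted p = 0.0667). From 24 h to 48 h after 12 Gy it had the greatest difference of the members, 2.31 (adjusted p = 2.3e-06), and between doses the difference was 0.27 (SE 0.19, adjusted p = 0.442), without overlap of the libraries.

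Oasl1 gave 27.0, 28.0 and 28.8% of all OAS reads at 12Gy_48h, 30.5, 26.0 and 26.5% at 12Gy_24h, 19.6, 20.2 and 18.7% at 4Gy_48h, and 17.9, 18.2 and 20.2% in control. Both 12 Gy groups lay above every 4 Gy and control library. Relative to Oas1a in the same library, the log2 ratio of Oasl1 was -0.04 ± 0.05 at 12Gy_48h, -0.33 ± 0.22 at 12Gy_24h, -0.79 ± 0.16 at 4Gy_48h and -1.0 ± 0.04 in control (SD, n = 3 each). No group overlapped control in this ratio. Each exact permutation test against control gave p = 0.1, the smallest that 3 against 3 allows, and 0.2 after adjustment. These tests therefore could not pass at 0.05 and decide nothing here. The share of OAS reads was not tested.

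**Figure D4:**
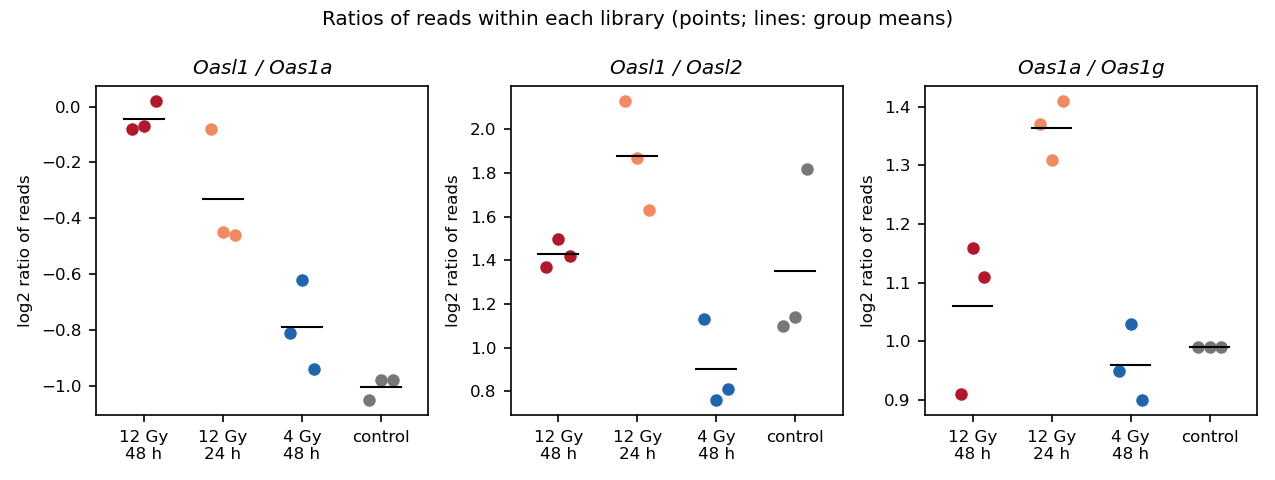
Log2 ratios of reads between pairs of OAS genes within each library, for 12Gy_48h, 12Gy_24h, 4Gy_48h and control. Points are libraries and lines are group means (n = 3). The Oasl1 to Oas1a ratio lies near 0 at 12Gy_48h and near -1 in control, and the Oas1a to Oas1g ratio at 12Gy_24h does not overlap that in control.

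Order among the members was set per kb of the longest coding transcript. At 12Gy_48h it ran Oas1a (129.6 CPM per kb), Oasl1 (109), Oas1g (59.3), Oasl2 (28.2), Oas3 (22.1), Oas2 (10.2), Oas1b (8.11) and Oas1c (1.62), with no overlap between neighbours. In control it ran Oas1a (72.3), Oas1g (34.7), Oasl1 (31.2), Oasl2 (8.84), Oas3 (8.48), Oas2 (4.13), Oas1b (3.58) and Oas1c (0.615). There the neighbours Oas1g and Oasl1, Oasl2 and Oas3, and Oas2 and Oas1b overlapped. Oasl1 thus stood clear of Oas1g at 12Gy_48h and at 12Gy_24h (29.7 against 16.1 CPM per kb), but not at 4Gy_48h (62.3 against 62.2) or in control. No source used here states the platform. The deposited counts carry the label "ont", a short form used for nanopore long reads, and their locus names are of a long-read style. If 1 read stood for 1 transcript, division by length would not apply. Undivided, the means at 12Gy_48h were 244 CPM for Oas1a and 238 for Oasl1, whose libraries overlapped, and 104 for Oas3 against 88.1 for Oasl2, the other way round from the order per kb. In control, Oas3 likewise had 40.0 CPM and Oasl2 27.6.

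The genes outside the family whose levels ran closest to a member were found by the root mean square difference of centred log2 CPM over the 12 libraries. Only known genes in the fit were searched, without those named as predicted genes or clones. Oas1c was left out for its low level. Nearest to Oas1a were Ifi35 (0.151), Irgm1 (0.158) and Apol9b (0.160). Nearest to Oas1g were Apol9b (0.170), Ifi44 (0.186) and Usp18 (0.240), and Apol9b was also the nearest to Oas3 (0.232). For Oas2 they were Psmb8, Xaf1 and Ube2l6, for Oas1b Herc6, H2-K1 and Sp110, for Oasl1 Herc6, Isg15 and Bst2, and for Oasl2 Irf7, Spats2l and Isg15, at 0.189 to 0.302. Inside the family, Oas1a and Oas1g lay 0.168 apart and Oas3 and Oasl2 0.222, each closer to the other than to any gene named here for Oas1g, Oas3 or Oasl2.

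Apol9b, an apolipoprotein L family gene, thus ran close to Oas1a and Oas1g and also held their 16-base element, as did its near copy Apol9a. Ifi35 and Irgm1, which ran closer to Oas1a than Apol9b did, were not among the genes whose windows held it. Oas1b, which carries the element but had few reads, lay 0.388 from Oas1a and 0.475 from Oas1g. The element is shown here in 75 bases of the Apol9b window, in capitals and on the opposite strand.
Apol9b, chr15:77728983-77729057, plus strand: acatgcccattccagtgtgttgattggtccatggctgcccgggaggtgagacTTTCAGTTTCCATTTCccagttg
Apol9b had 791, 797 and 833 reads at 12Gy_48h, 213, 210 and 212 at 12Gy_24h, 886, 683 and 835 at 4Gy_48h, and 474, 486 and 302 in control. Its log2 fold changes against control were 1.03 at 12Gy_48h (SE 0.15), -0.80 at 12Gy_24h (SE 0.15) and 1.02 at 4Gy_48h (SE 0.15), with adjusted p of 8.52e-05, 0.000372 and 0.00026 in edgeR's test. Apol9a gave 1.01, -0.53 and 0.87, all 3 called. This overlap of pattern and sequence was noticed after the values were seen. Reads from Apol9a and Apol9b may be split between the copies.

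The motif count was then set beside the calls for all known genes tested that have a window, as a description without a test. Among 29 genes with 2 or more matches, 3 of them members, 16 were called higher at 12Gy_48h (55.2%), 3 higher and 9 lower at 12Gy_24h, and 14 higher at 4Gy_48h (48.3%). The difference was smaller for all 297 genes with 1 or more matches, these 29 included. Of them, 26.9% were called higher at 12Gy_48h, 20.5% higher and 8.75% lower at 12Gy_24h, and 17.2% higher at 4Gy_48h. Among 7545 genes with no match, 18.2% were called higher at 12Gy_48h, 26.5% higher and 3.83% lower at 12Gy_24h, and 5.78% higher at 4Gy_48h. Without the members, 13 of 26 genes with 2 or more matches were called higher at 12Gy_48h. These 26 still include Apol9a and Apol9b, both called. All these shares come from the fit on all genes, in which known genes are shifted upward against control, and were not counted with known genes alone. Oasl1 and Oasl2, whose windows held no match, had the 2 greatest log2 fold changes among the members at 12Gy_48h.

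Of 2 further genes tested beside the synthetases, Abce1 and Pde12, neither was called at 48 h against control. Abce1, a ribosome recycling factor, had 449, 404 and 368 reads at 12Gy_24h against 373, 317 and 304 in control, and rose by 0.48 (SE 0.12, adjusted p = 0.00354), a call that did not hold with known genes alone (0.24, adjusted p = 0.166). It was lower at 12Gy_48h than at 12Gy_24h by both fits (-0.57 and -0.52). Pde12, which degrades 2-5A, was not called in any comparison, nor was Cgas, whose product has the OAS fold but responds to DNA.

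A list of 8 genes of RNA sensing and response held the sensor genes Ifih1, Ddx58, Dhx58, Eif2ak2, Tlr3 and Zbp1, the signalling adaptor gene Mavs and the RNA-editing enzyme gene Adar. Of the 8, 7 were called higher at 12Gy_48h (median 1.07) and 6 at 4Gy_48h (median 0.88), and none lower. With known genes alone the counts were 6 and 4. Among all known genes tested, 18.2% were called higher at 12Gy_48h and 6.21% at 4Gy_48h, or 6.76% and 0.754% with known genes alone. At 12Gy_24h, Eif2ak2 and Mavs were called higher, Mavs not with known genes alone, and Dhx58, a regulator of the RIG-I family, was called lower (-1.44). That comparison called 26.5% of known genes higher and 3.99% lower, so 2 higher calls among 8 genes do not stand out. Zbp1, a sensor of Z-form nucleic acid, had 227, 257 and 302 reads at 12Gy_48h, 15, 18 and 24 at 12Gy_24h, 171, 102 and 143 at 4Gy_48h, and 44, 36 and 24 in control. Its change was 3.01 at 12Gy_48h and 2.09 at 4Gy_48h, both called, and -0.67 at 12Gy_24h, called only with known genes alone (-0.91, adjusted p = 0.0485).

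Of 10 interferon signalling genes tested, 6 were called higher at 12Gy_48h (median 0.73) and 4 at 4Gy_48h (median 0.49), and 5 and 2 with known genes alone. The shares of known genes called higher there were 18.2% and 6.21%, and 6.76% and 0.754% with known genes alone. At 12Gy_24h, 3 were called lower, namely Stat2 (-0.55), Irf7 (-0.76) and Usp18 (-1.14), and these 3 calls held with known genes alone. Jak1 and Irf3 were called higher there, but not with known genes alone. Of all known genes, 26.5% were called higher at 12Gy_24h and 3.99% lower, so these 2 higher calls do not stand out. Irf7, the interferon-amplifying transcription factor that Oasl1 restrains in mice, rose by 1.83 at 12Gy_48h and 1.46 at 4Gy_48h. The ligands themselves were barely seen. Ifnb1 had 3, 2 and 2 reads at 12Gy_48h, 1, 3 and 1 at 12Gy_24h, 2, 2 and 1 at 4Gy_48h, and 1, 0 and 0 in control, too few to test, and the other 9 interferon genes listed had no read.

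**Figure D5:**
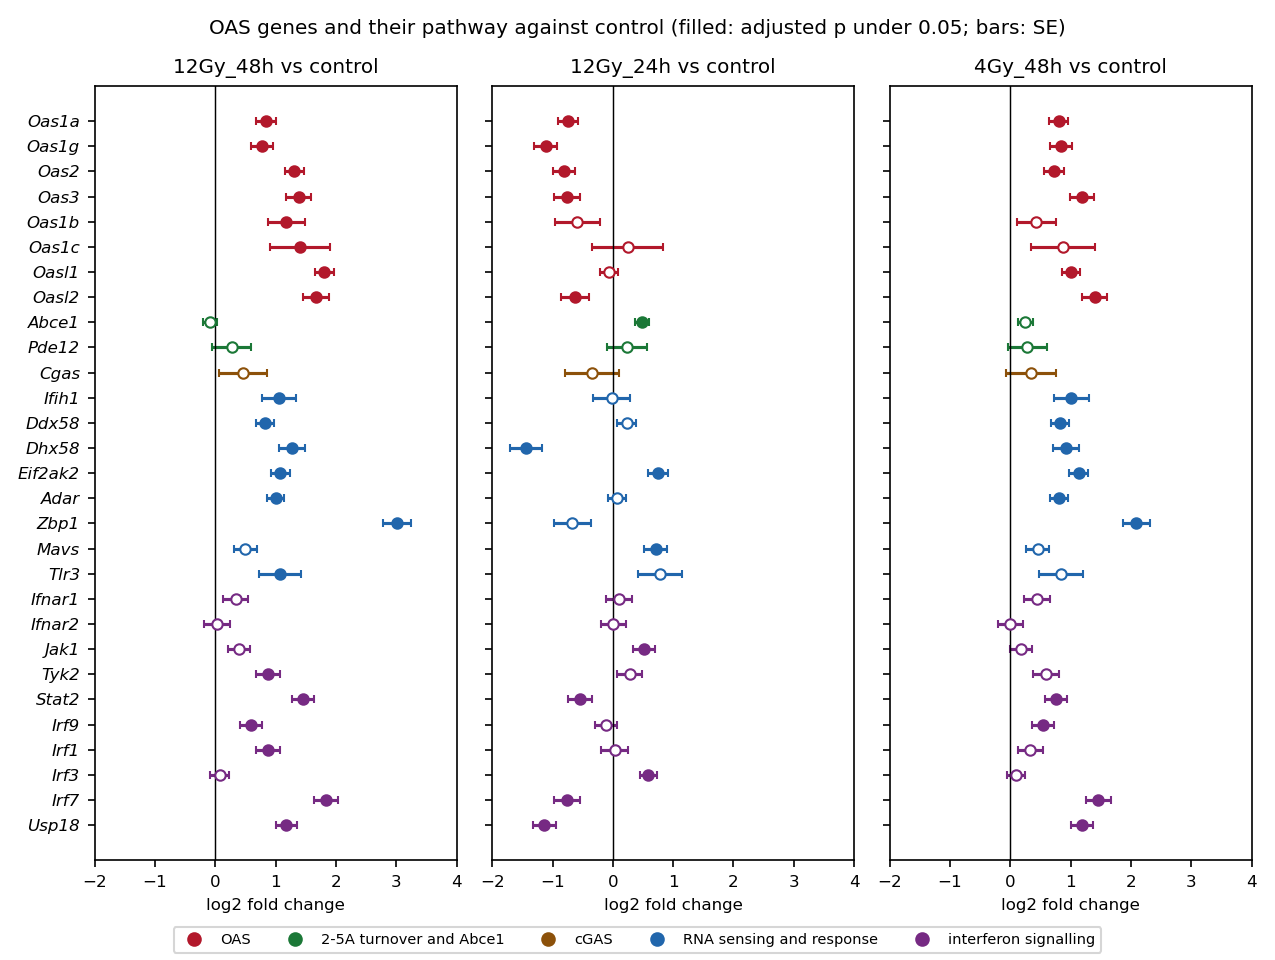
Log2 fold changes against control, with SE bars, for the OAS genes, Abce1 and the 2-5A turnover gene Pde12, cGAS, RNA sensing and response genes and interferon signalling genes; filled points have an adjusted p under 0.05. At 12Gy_48h the 8 OAS genes are filled and right of 0 while Abce1 and Pde12 are open, and at 12Gy_24h the 5 filled OAS genes are left of 0.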

How the data were processed

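Total RNA from 12 MODE-K libraries was sequenced. The authors deposited 1 gene table with raw counts and with CPM, each count relative to its library total; CPM recomputed from the counts differed by at most 4.78e-06. Per the submitters' processing notes, cutadapt 1.9 and FastQC were used. No source used here names the aligner, build, annotation or strand setting, or states the platform beyond the label "ont". Groups came from the sample labels. In the table, 11 lines that continued the text of another line were left out. Counts were fitted in R 4.3.3 with edgeR 4.0.16 (filterByExpr with a minimum count of 10, TMM scaling, 1 mean per group, two-sided quasi-likelihood test), which left 15086 genes, 9809 of them known and 4898 newly assembled. The SE is the log2 fold change over the root of the F statistic. Alternatives were RLE scaling, no filter, DESeq2 1.42.0, known genes alone, a replicate block and leaving out each library. The steps were tested on simulated data. Every member was reported whatever its values; members, gene lists and the named genes of each list were chosen with earlier results of these data known, and the motif, read by script from the Oas1a window, after the promoter windows were seen. Sequences are RefSeq's (GRCm38.p6), read from the tables given, which hold no window for Oas2 or, under its own name, Oas1b. Same-numbered libraries did not deviate together, and the numbers were taken as names only. No pair of replicates agreed within counting error (chi-square per gene 1.72 to 7.45). Some genes of the pathway are not reported here, and list counts leave them out.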

Additional observations from a re-analysis of the deposited data

Results flagged for a closer look

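Direct tests of 12Gy_48h against 12Gy_24h in edgeR called different levels at the 2 times after 12 Gy for 7 OAS genes, with log2 differences of 1.58 for Oas1a, 1.77 for Oas1b, 1.88 for Oas1g, 2.12 for Oas2, 2.13 for Oas3, 1.87 for Oasl1 and 2.31 for Oasl2. These 7 differences compare only the 12Gy_48h and 12Gy_24h groups and include any change with time in culture. The filter, scaling and estimate of spread behind the calls used all 12 libraries, controls included. All 7 were called in every alternative run. Between doses at 48 h, Oas2 differed by 0.58 and Oasl1 by 0.81 in the same test. The difference of Oasl1 was called in every alternative run, and that of Oas2 was not.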

How the results depend on the processing

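The 7 OAS calls of 12Gy_48h over 12Gy_24h kept their direction and call under all alternatives run. At 12Gy_48h against control, 7 or 8 members were called in every alternative, Oas1c being the one lost. At 12Gy_24h, 3 to 5 members were called lower when 1 library was left out, with 3 without control replicate 2 (Oas3 and Oasl2 lost). DESeq2 called 4 lower there, with Oasl2 lost. At 4Gy_48h, 3 members were called higher with known genes alone. Between doses, 1 member (Oasl1) was called with DESeq2, with the replicate block and with any 1 library left out. The cause of these changes was not tested.

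Values not called turned sign in several fits. For Oasl1 at 12Gy_24h against control, the log2 fold change was 0.09 without a filter on low counts and 0.02 with DESeq2, and it ran from -0.18 to 0.22 with 1 library left out. Over the same libraries left out, Oas1b ran from -0.79 to 0.10 and Oas1c from -0.02 to 1.04. Between doses, Oas1a was -0.0014 with known genes alone and ran from -0.11 to 0.15 with 1 library left out, and Oas1g from -0.25 to 0.07.

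Counts over all genes moved more. The fit on known genes alone gave 664 higher calls and 789 lower calls for 12Gy_48h against control, 898 higher and 776 lower for 12Gy_24h, 74 higher and 56 lower for 4Gy_48h, and 1090 higher for 12Gy_48h over 12Gy_24h. DESeq2 called 1260 higher at 12Gy_48h and 448 at 4Gy_48h. Without the filter, 4342 were higher at 12Gy_24h, 1185 at 4Gy_48h, and 537 higher and 576 lower between doses. With 1 library left out, the 4Gy_48h comparison called 304 to 1011 higher and 1220 to 2159 lower, the comparison of times 2066 to 3058 higher, and that of doses 41 to 213 higher and 36 to 241 lower. The replicate block took Oas1c at 12Gy_48h to an adjusted p of 0.0539; same-numbered libraries correlated at -0.111 to 0.125 in their deviations, so the numbers mark no known pairing. Oas1c and Oas1b are limited by depth, with 3 to 59 reads per library. Scaling over known genes alone moved 22 mean CPM levels of members by more than 1 SD and 10 by less. That scaling divides by a smaller total, without the newly assembled loci, so a rise in the members' CPM is built in.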
